A study of Bos taurus with 16 samples.

Results

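The response of control chondrocytes to TGFβ2 was measured in 8 of the 16 RNA-Seq libraries of the series, all from bovine superficial zone articular chondrocytes that carried the control shRNA, shScramble. The members were the 4 libraries of condition AB, in which the cells received 100 ng/ml TGFα and 20 ng/ml TGFβ2, and the 4 of condition A, with 100 ng/ml TGFα and no TGFβ2. They were chosen by their labels and paired by calf, so that each of 4 calves gave 1 library to each condition. All cells came from the knees of young calves, were infected with shScramble lentivirus, went through 5 days of selection in puromycin at 0.8 µg/ml, and were then held on low attachment plates with 10% serum for 48 hours in A or AB. The other 8 libraries, with an shRNA against Creb5, enter here only where the responses are compared. TGFα was present in both conditions, so the comparison is of TGFβ2 added to TGFα and serum and not of TGFβ2 against unstimulated cells.

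TGFβ ligands are secreted in a latent complex with LTBP proteins, bind a pair of serine/threonine kinase receptors and activate SMAD2 and SMAD3, which enter the nucleus with SMAD4. Among the genes they switch on are inhibitors of the pathway itself and genes for extracellular matrix and the enzymes that process it. The superficial zone is the layer of articular cartilage next to the joint space, and its cells secrete lubricin, the product of PRG4, which lowers friction between the joint surfaces and is known to respond to TGFβ.

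The 8 libraries held between 14710867 and 21696674 counts, the lowest being the AB library of calf 4, and between 15663 and 16368 genes with at least 1 count. Their 10 most abundant genes took 12.8% to 15.8% of the counts in A and 16.2% to 20.3% in AB. Levels are given as CPM, which puts the libraries on 1 scale by edgeR's TMM factors but does not divide by gene length, and log2 fold changes are of AB against A within calves. A gene was called, and is said to have risen or fallen, when edgeR's quasi-likelihood test gave it an adjusted p (Benjamini-Hochberg) under 0.05. Gene names were at hand for 3185 of the 19454 genes of the table, from lines that had been sorted by the effect of shCreb5, so the named genes are not a random draw. Of the genes listed as markers of chondrocytes, PRG4, HAPLN1 and COL11A1 could be identified, with a summed level of 15607 to 23612 CPM in A and 32856 to 65987 CPM in AB. PRG4 alone measured 4363 to 19083 CPM in A and 14035 to 59050 CPM in AB, while HAPLN1 and COL11A1 were not called. COL2A1, ACAN, SOX9, SMAD7, TGFBR2, COL1A1 and ACTA2 could not be identified among the names at hand, so no values are given for them. They may be among the genes tested without a name.

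TGFβ2 changed 2556 of 12879 genes, 19.8% of those tested, with 1378 higher (10.7%) and 1178 lower (9.15%) in AB. The median log2 fold change was 0.77 among the genes that rose and -0.73 among those that fell, against -0.0050 over all genes tested. A change of at least 1 on the log2 scale was reached by 505 rising genes (3.92%) and 351 falling genes (2.73%). Of the genes that rose 1350 were higher in 4 of 4 calves, and of those that fell 1150 were lower in 4 of 4. The 4 AB libraries lay wholly above the 4 A libraries for 512 of the genes that rose and wholly below them for 386 of those that fell, where 635 (4.93%) and 531 (4.12%) of all tested genes did so. Most called genes thus overlapped between the groups in level while moving the same way within calves. The RNA came from whole cultures, so a change in the number of cells of a kind and a change in RNA per cell cannot be told apart. The size of the response was smaller in calf 2 for the risen genes, with a median log2 ratio of 0.58 against 0.82 in calf 1, 0.84 in calf 3 and 0.76 in calf 4. For the fallen genes it was -0.75, -0.66, -0.67 and -0.69 in calves 1 to 4. Among the 3096 tested genes with a name, 893 were called (28.8%), 501 higher (16.2%) and 392 lower (12.7%), and counts over named genes are read against these shares.

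The number of calls rested on the pairing and on the calves included. Without calf 3 the called genes fell to 1366, and without calf 2 the lower ones fell to 688, while scaling to library totals in place of TMM lowered all fold changes by a median of 0.18 and split 3182 called genes into 841 higher and 2341 lower.

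**Figure D1:**
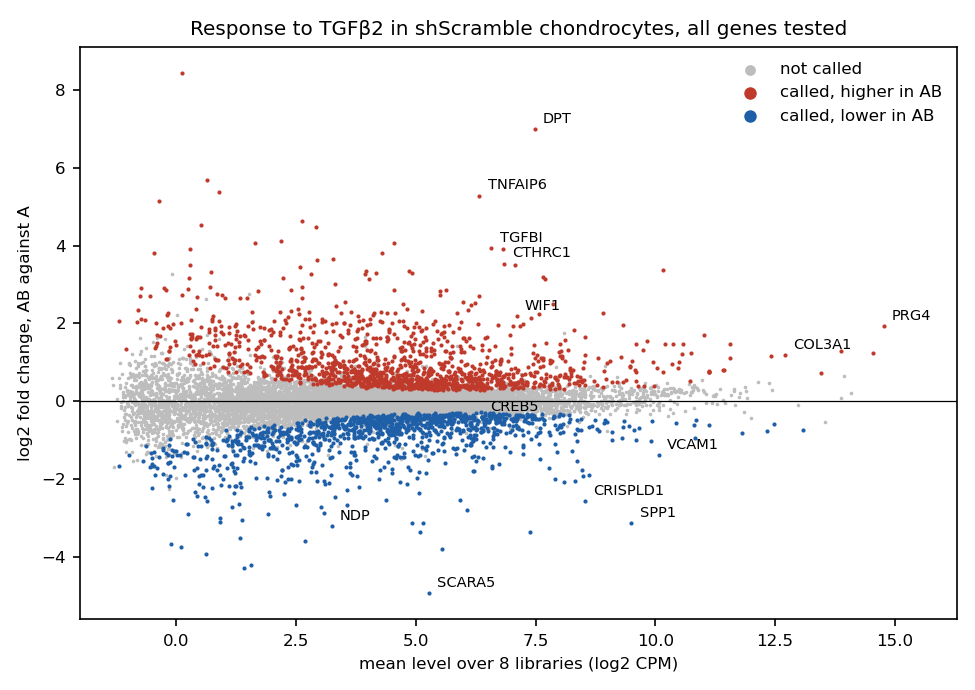
Log2 fold change of AB against A plotted against the mean level over the 8 shScramble libraries (log2 CPM), 1 point for each of the 12879 genes tested. The 1378 called genes higher in AB are red and the 1178 lower are blue. SCARA5 has the lowest log2 fold change of a called gene. DPT, at 6.995, is below the highest, 8.43, and PRG4 lies at the far right.

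The genes that rose most, among those with a name, were largely genes of matrix and other secreted proteins. Those of largest fold change, rising or falling, were picked among called genes that moved 1 way in all 4 calves. They also had to reach a mean of 10 CPM in the higher group. DPT (ENSBTAG00000021211), which encodes dermatopontin, a small matrix protein that binds decorin, had the largest fold change of the genes so picked. The largest log2 fold change of any called gene was 8.43. DPT measured 3.92, 0.828, 2.89 and 3.02 CPM in the A libraries of calves 1 to 4 and 584, 91.1, 461 and 285 CPM in their AB libraries. The groups were far apart in every calf, and the log2 fold change was 6.995 ± 0.17 (SE), with an adjusted p of 1.35e-06, a 128-fold rise.
TNFAIP6 (ENSBTAG00000007239), whose product TSG-6 binds hyaluronan and modifies it with heavy chains, measured 0.612, 3.65, 5.79 and 4.39 CPM in A and 213, 30.8, 166 and 217 CPM in AB. All AB libraries were above all A libraries, calf 2 having the lowest AB level. The log2 fold change was 5.28 ± 0.66 (SE), with an adjusted p of 0.00154, and it was 4.61 without calf 1.
TGFBI (ENSBTAG00000009513), named for its induction by TGFβ and encoding a matrix protein that binds collagen and integrins, went from 5.22, 13.1, 14.8 and 10.3 CPM to 94.9, 78.6, 243 and 304 CPM. It was lowest in A in calf 1 and rose in 4 of 4 calves, and the log2 fold change was 3.93 ± 0.34 (SE), with an adjusted p of 0.000367.
MATN2, a matrilin that links matrix proteins to each other, measured 5.22, 16.03, 17.2 and 23.4 CPM in A and 186, 199, 207 and 254 CPM in AB, with a narrower range in AB relative to its level. CTHRC1, a secreted protein with a collagen triple helix repeat, measured 7.18, 85.9, 9.16 and 9.87 CPM in A and 173, 345, 89.1 and 201 CPM in AB, and calf 2 had the highest level in each condition. CILP2, a protein of the cartilage matrix, measured 21.9, 55.6, 10.2 and 14.7 CPM in A and 262, 322, 154 and 236 CPM in AB. The log2 fold change was 3.91 for MATN2, 3.53 for CTHRC1 and 3.50 for CILP2.
The other leading genes were TRH, the thyrotropin-releasing hormone precursor, with a log2 fold change of 4.63, CLEC3A, a C-type lectin of cartilage, with 4.49, and ADAMTSL2, a secreted relative of the ADAMTS proteases that binds fibrillin and LTBP1, with 4.08. NFATC2, a transcription factor regulated by calcineurin, had 3.64, the immunoglobulin superfamily member IGSF9B had 3.65, and MYH15, a myosin heavy chain, had 3.28. Among them were genes of low count: TRH reached at most 19.3 CPM in a library, NFATC2 20.7 CPM and CLEC3A 21.1 CPM, with 0 CPM of CLEC3A in the A library of calf 1. IGSF9B had 15, 8 and 11 counts in the A libraries of calves 1 to 3 and 114 in that of calf 4. The A and AB libraries overlapped for IGSF9B and CLEC3A, while each gene rose in 4 of 4 calves, as the choice of these genes required. PENK, the proenkephalin gene, had a log2 fold change of 3.35 (adjusted p = 0.0373) but a log2 ratio of only 0.02 in calf 1, and it lost its call without calf 2, 3 or 4 (adjusted p of 0.0945, 0.151 and 0.115).

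SCARA5 (ENSBTAG00000019636), a scavenger receptor that takes up ferritin, fell most among the named genes. It measured 184, 7.84, 61.8 and 45.4 CPM in A and 5.12, 0.316, 2.74 and 1.22 CPM in AB. Calves differed widely in level, with calf 1 highest and calf 2 lowest in each condition, but the fall was of like size in each, and all AB libraries were below all A libraries. The log2 fold change was -4.92 ± 0.16 (SE), with an adjusted p of 6.77e-06, a 30.2-fold fall.
SPP1 (ENSBTAG00000005260), the gene of osteopontin, a phosphorylated protein of mineralized matrix, fell from 653, 1439, 1893 and 1213 CPM to 169, 222, 98.5 and 101 CPM. No AB library reached the level of any A library, and the log2 fold change was -3.13 ± 0.36 (SE), with an adjusted p of 0.00113.
IGSF10, a secreted immunoglobulin superfamily protein, measured 237, 25.5, 37.6 and 54.9 CPM in A and 7.52, 2.95, 4.42 and 4.14 CPM in AB. CRISPLD1, a secreted protein of the CAP family, measured 464, 1026, 533 and 502 CPM in A and 64.1, 166, 112 and 90.97 CPM in AB. The groups did not overlap for either gene, and calf 1 stood highest in A for IGSF10. Their log2 fold changes were -3.80 and -2.55, with standard errors of 0.31 and 0.13.
NDP, the gene of norrin, a ligand of Frizzled-4, had a log2 fold change of -3.19, and the aldehyde oxidase AOX1 had -2.80. SEL1L3 had -3.59, the calgranulin S100A12 -3.11, the water channel AQP5 -2.70, CYP1A1, an enzyme of xenobiotic metabolism, -2.53, and the adenylate kinase AK5 -2.19. ABLIM3, an actin-binding protein, had -2.45, which was -1.41 without calf 1. The A and AB libraries overlapped for NDP, SEL1L3, S100A12, AQP5, ABLIM3 and AK5, while each fell in 4 of 4 calves, as their choice required. Some of these falls rest on few counts. In calf 2 SEL1L3 went from 2 counts to 0 and NDP from 40 to 5, and in calf 1 S100A12 went from 29 to 2. SEL1L3 was highest in calf 1 and was not tested when that calf was left out. Among the named falls of smallest adjusted p were those of NRP1, a co-receptor for semaphorins, VEGF and TGFβ, with log2 ratios of -2.26, -2.01, -2.09 and -1.95 in calves 1 to 4, and GHR, the growth hormone receptor, with -1.71, -1.86, -1.85 and -1.70. Their log2 fold changes were -2.08 and -1.78, each with an adjusted p of 3.54e-05.

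**Figure D2:**
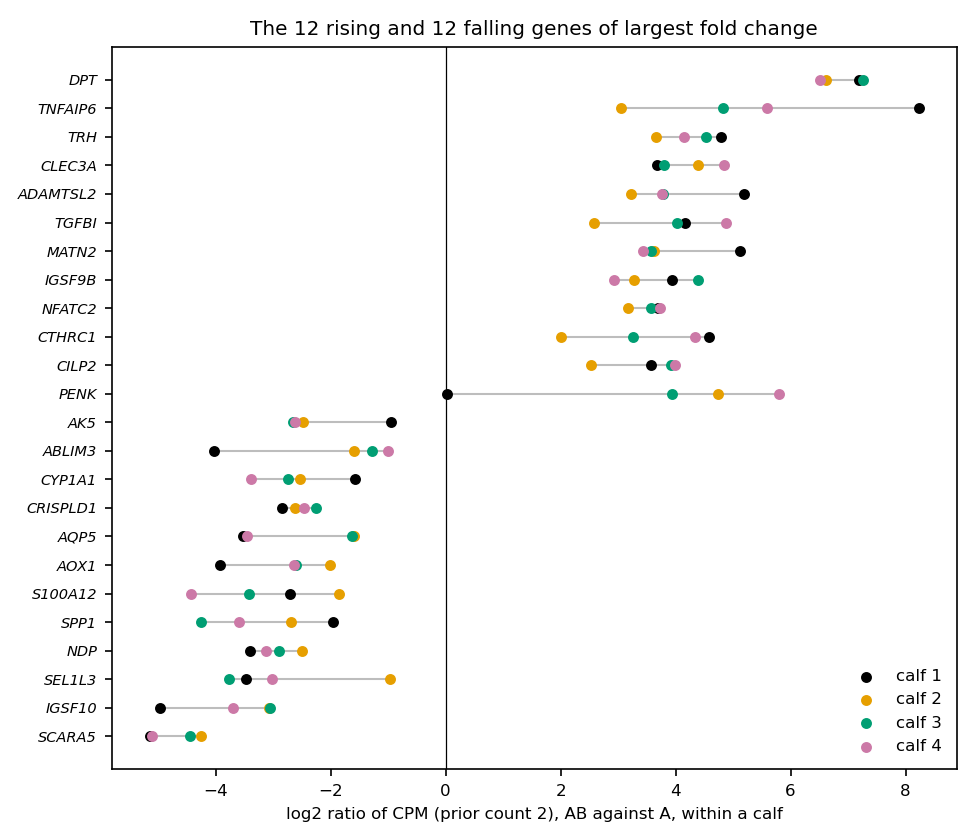
Log2 ratio of AB over A within each calf for the 12 rising and 12 falling named genes of largest fold change, 1 point per calf with a line over the range of the 4 calves. All points lie on the side of the gene's call because the genes were chosen to move 1 way in all 4 calves. PENK in calf 1 lies next to 0.

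A few genes of the TGFβ pathway itself were called, in both directions. Of 11 tested genes for ligands, latency proteins, receptors and SMADs, 2 rose, 3 fell and 6 were not called, with a median log2 fold change of -0.13. Of all named genes 16.2% rose and 12.7% fell, and 11 genes are too few to set the list apart from these shares. TGFB3 fell from 95.9, 107, 88.8 and 100.3 CPM to 55.9, 46.8, 47.9 and 49.2 CPM, with all AB libraries below all A libraries (log2 fold change -0.97 ± 0.098, adjusted p = 0.000711). LTBP2, a member of the latent TGFβ binding protein family, rose from 115 ± 55.4 CPM (SD, n = 4) to 304 ± 101 CPM, a log2 fold change of 1.51. LTBP1, which holds latent TGFβ in the matrix, fell by 0.50 on the log2 scale, and TGFBR3, the co-receptor betaglycan, fell by 0.46. TGFB1 rose from 41.5, 30.8, 31.8 and 34.8 CPM to 45.95, 43.5, 41.1 and 46.9 CPM, with a log2 fold change of 0.36 (adjusted p = 0.034). The calls of TGFB1 and LTBP1 were lost without calf 2, 3 or 4 (adjusted p up to 0.139 and 0.123) and that of TGFBR3 without calf 1, 2 or 4 (up to 0.164). TGFB2, the gene of the same ligand as was added, measured 116, 80.5, 57.2 and 75.9 CPM in A and 28.7, 39.3, 46.01 and 82.5 CPM in AB and was not called (log2 fold change -0.80, adjusted p = 0.101), its log2 ratios running from -2.02 in calf 1 to 0.12 in calf 4. It was called lower without calf 4 (-1.12) and without the filter on low counts (-0.80). The receptor gene TGFBR1 was not called either (0.38, adjusted p = 0.108).

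Genes known as early targets or inhibitors of the pathway were called in 8 of 13 cases, all higher, where 16.2% of all named genes rose. Their median log2 fold change was 0.40. Besides TGFBI, the risen genes were SKIL and SKI, which repress SMAD-driven transcription, TGIF1, a repressor that binds SMAD2, the ubiquitin ligase SMURF2, LDLRAD4, which holds back SMAD activation, the transcription factor KLF11, and TGFB1I1, the focal adhesion protein Hic-5. SKIL went from 22.8, 26.6, 36.9 and 37.5 CPM to 50.5, 54.4, 54.96 and 81.4 CPM (log2 fold change 0.97 ± 0.12, adjusted p = 0.0014), and TGIF1 had a log2 fold change of 0.65. The other 5 had log2 fold changes of 0.31 to 0.48. CCN2, the gene of connective tissue growth factor, was higher in calves 2 and 4 and lower in calves 1 and 3, with 827 ± 464 CPM in A and 807 ± 183 CPM in AB (log2 fold change 0.09, adjusted p = 0.86). The count of 8 was 5 without calf 1, and 3 without calf 3, without calf 4 or with scaling to library totals.

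The superficial zone genes gave 5 rises and 3 falls among 9 tested, against 16.2% and 12.7% of all named genes. PRG4 (ENSBTAG00000011932) measured 12769.7, 4363, 19083 and 9695 CPM in A and 59050.0, 14035, 59044 and 45367 CPM in AB. It rose in 4 of 4 calves, by a log2 ratio of 2.21, 1.69, 1.63 and 2.23 in calves 1 to 4, while the groups overlapped, calf 2 in AB being below calf 3 in A. The log2 fold change was 1.94 ± 0.22 (SE), with an adjusted p of 0.00113, a 3.83-fold rise, and PRG4 took 0.42% to 1.90% of all counts in A and 1.24% to 5.69% in AB. DESeq2 gave PRG4 the same log2 fold change, 1.93, with an adjusted p of 0.0863 and a dispersion of 0.66. The gene-wise dispersion estimated by edgeR was 0.026, but the quasi-likelihood test does not use that value. The reason for the difference in the call was not tested.
WIF1, a secreted inhibitor of Wnt signaling, rose from 74.2, 58.8, 38.4 and 32.7 CPM to 273, 196, 184 and 244 CPM. The groups did not overlap, and the log2 fold change was 2.19 ± 0.19 (SE), with an adjusted p of 0.000352. HAS2, a hyaluronan synthase, rose by 1.79 on the log2 scale, TNFRSF11B, the decoy receptor osteoprotegerin, by 0.97, and the hyaluronan receptor gene CD44 by 0.66.
VIT, the gene of the matrix protein vitrin, fell from 121, 729, 351 and 338 CPM to 36.8, 196, 91.6 and 63.5 CPM, in 4 of 4 calves (log2 fold change -1.99 ± 0.13, adjusted p = 0.000134). CLU, the gene of the secreted chaperone clusterin, and CREB5, the transcription factor that the study targets in its other cells, changed less. CREB5 measured 126, 72.4, 78.5 and 106 CPM in A and 84.1, 59.7, 63.3 and 79.8 CPM in AB, lower in 4 of 4 calves, and its log2 fold change was -0.40 ± 0.091 (SE), with an adjusted p of 0.0195. It lost its call with any 1 calf left out (adjusted p up to 0.0627). CLU had a log2 fold change of -0.57 and lost its call without calf 2, 3 or 4 (adjusted p up to 0.163). ABI3BP was not called, at -0.16.

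**Figure D3:**
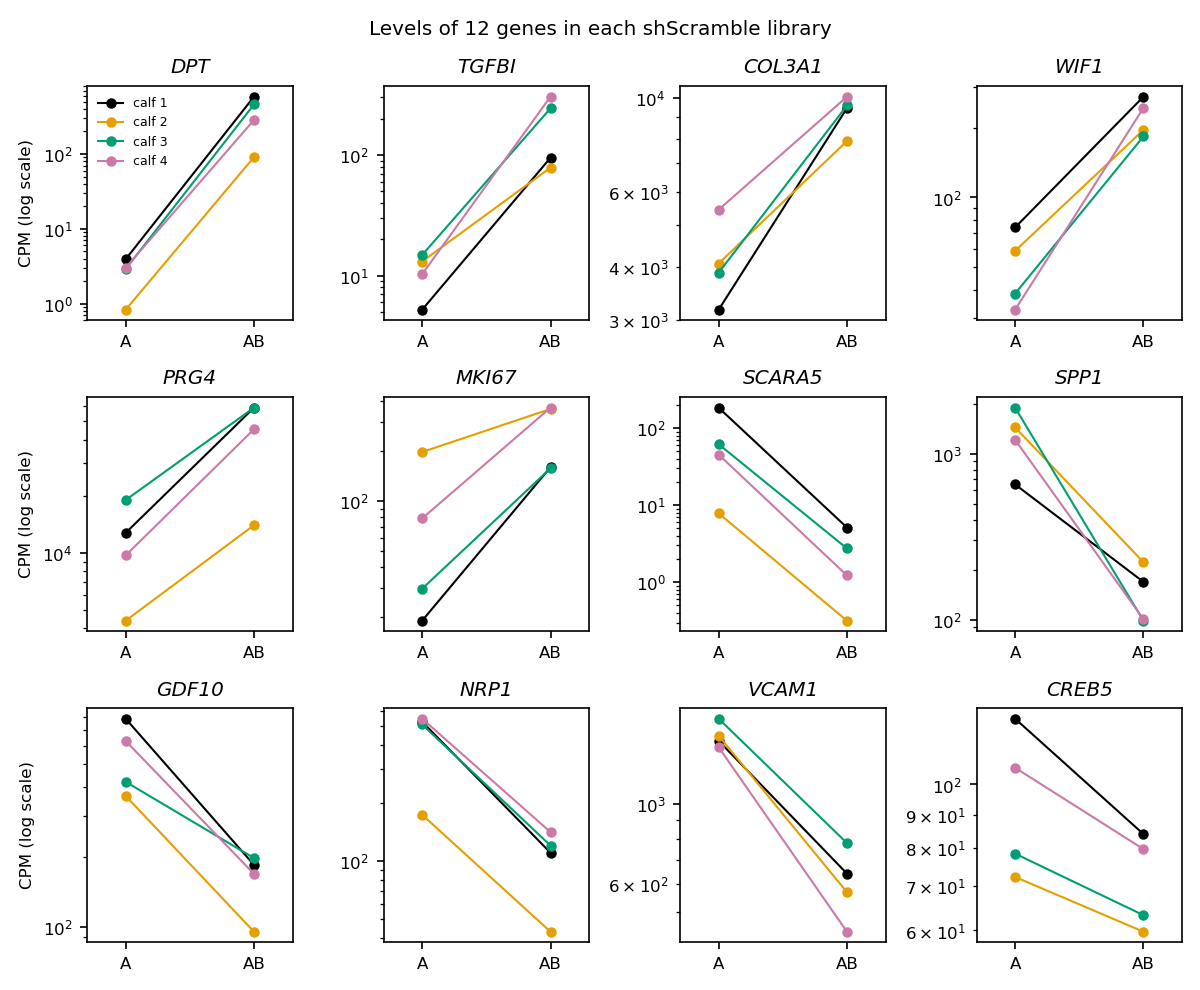
Levels (CPM, log axis) of 12 genes in the A and AB libraries of shScramble cells, with a line joining the 2 libraries of each calf. DPT, TGFBI, COL3A1, WIF1, PRG4 and MKI67 are higher in AB and SCARA5, SPP1, GDF10, NRP1, VCAM1 and CREB5 lower in AB in all 4 calves.

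Of 14 tested genes of BMP and activin signaling, 3 rose and 5 fell, against 16.2% and 12.7% of all named genes. Their median log2 fold change was -0.16. Among the ligands, BMP6 rose from 2.41, 6.29, 5.84 and 9.14 CPM to 22.1, 16.2, 26.8 and 29.96 CPM, and GDF5, a BMP family ligand of joint development, from 14.7, 32.8, 6.79 and 23.9 CPM to 47.6, 90.9, 31.1 and 47.7 CPM. GDF10, also called BMP3B, fell from 785, 365, 420.1 and 629.6 CPM to 185, 95.2, 197 and 169 CPM. The groups did not overlap for BMP6 and GDF10, and GDF5 rose in each calf. The log2 fold changes were 2.08, 1.57 and -1.76, with adjusted p-values of 0.00162, 0.00104 and 0.000654.
The extracellular regulators were split. CHRD, the gene of the BMP antagonist chordin, rose by 1.96 on the log2 scale, while CHRDL1, a related antagonist, had -1.83, BMPER -1.78, CHRDL2 -1.11 and TWSG1 -0.75. BMPER, a secreted protein that binds BMPs, measured 129, 159.6, 68.98 and 101 CPM in A and 28.2, 53.5, 18.95 and 35.8 CPM in AB, with no overlap. The BMP target genes ID2 and ID3, with log2 fold changes of -0.13 and -0.19, were not called.

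Of 10 tested genes of Wnt signaling, 6 rose and 2 fell, against 16.2% and 12.7% of all named genes. Their median log2 fold change was 0.75. The risen genes were WIF1, NKD1, an inhibitor that is itself a Wnt target (2.29), the secreted antagonist SFRP4 (1.85), the Wnt receptors ROR1 (1.64) and ROR2 (0.56), and the transcription factor TCF7 (0.95). The fallen genes were NDP and SFRP2, a second secreted Frizzled-related protein (-1.31), whose call was lost without calf 3 or 4 (adjusted p up to 0.0868). NKD1 measured 3.101, 1.12, 0.789 and 1.28 CPM in A and 10.7, 4.69, 6.597 and 7.27 CPM in AB. AXIN2, a target of β-catenin, was not called, at 0.02. SFRP4 moved little in calf 2, with a log2 ratio of 0.10.

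Matrix genes of fibrous tissue and the enzymes that mature collagen gave more rises than falls. Of 20 tested fibrous matrix genes 10 rose and 2 fell, against 16.2% and 12.7% of all named genes. Their median log2 fold change was 0.85, and 9 to 10 rose with any calf left out. COL3A1 (ENSBTAG00000021466), the chain of type III collagen, went from 3166, 4068, 3869.8 and 5445 CPM to 9448, 7902, 9586 and 10052 CPM. All AB libraries were above all A libraries, and the log2 fold change was 1.18 ± 0.18 (SE), with an adjusted p of 0.00356. The type V collagen chains COL5A1 and COL5A2 had 1.56 and 1.48, the type XII chain COL12A1 1.12, and the matricellular gene THBS1 1.96.
POSTN, the gene of periostin, went from 10.1, 6.19, 13.9 and 50.03 CPM to 212, 12.9, 115 and 221 CPM, with the smallest change in calf 2 (log2 fold change 2.71, adjusted p = 0.00566). The elastic fiber proteins FBLN2 and FBLN5 had 1.37 and 0.80. The 2 fallen genes were TNC, the gene of tenascin C (-0.73), and VCAN, the gene of the large proteoglycan versican (-0.73). TNC lost its call without calf 2, 3 or 4 (adjusted p up to 0.136). The type VI chains COL6A1 and COL6A2, at 0.30 and 0.37, and COL14A1, at -0.02, were not called.
Of 13 tested collagen processing enzymes 9 rose and 0 fell, against 16.2% and 12.7% of all named genes. Their median log2 fold change was 0.70. Without calf 3 only 5 rose, and with scaling to library totals 6 rose and 1 fell. TGM2, a transglutaminase that cross-links matrix proteins, had log2 ratios of 1.77, 1.85, 1.85 and 1.85 in calves 1 to 4 (log2 fold change 1.84 ± 0.09, adjusted p = 3.54e-05). LOX, lysyl oxidase, went from 302, 340.3, 936 and 466 CPM to 981, 771, 1488 and 1587 CPM (1.33). The others were COLGALT2, a collagen galactosyltransferase (1.12), the lysyl hydroxylases PLOD2 (0.91) and PLOD1 (0.46), the procollagen peptidase ADAMTS2 (0.89), and the collagen chaperones and prolyl isomerases FKBP10 (0.70), SERPINH1 (0.51) and FKBP14 (0.46).

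Of 5 tested genes of the cartilage matrix 1 rose and 1 fell, as did 1 each of 5 mineralization genes, where 28.8% of all named genes were called. CHAD, the gene of the collagen-binding protein chondroadherin, rose by 2.38 on the log2 scale, and MATN4, a matrilin, had -1.89, while HAPLN1 (-0.09), MATN1 (0.26) and COL11A1 (0.47) were not called. MGP, an inhibitor of calcification, went from 928 ± 512 CPM (SD, n = 4) to 1685 ± 519 CPM (0.95), in the opposite direction to SPP1. The remaining 3 of the 5 mineralization genes tested, ANKH, ENPP1 and DMP1, were not called. Without calf 4 there were 2 cartilage matrix genes that rose, and without calf 2 there were 2 mineralization genes that did.

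Contractile and focal adhesion genes showed 2 rises and 2 falls of 16 tested, where 28.8% of all named genes were called. ITGA5, the α5 integrin chain of the fibronectin receptor, rose from 169.9, 143, 158 and 182 CPM to 453, 286, 385 and 553 CPM (1.33). TAGLN, the actin-binding protein SM22, had 1.48 at levels of 3.06, 1.56, 1.21 and 1.28 CPM in A and 8.52, 3.27, 2.85 and 5.503 CPM in AB. CALD1, the actin regulator caldesmon, fell from 475, 359, 685 and 442 CPM to 208, 148, 175 and 141 CPM (-1.52, adjusted p = 0.000645), and NEXN, an actin filament protein, had -0.69 and lost its call without calf 1, 3 or 4 (adjusted p up to 0.1). Of 2 tested YAP/TAZ target genes, CCN2 was not called (0.09), and F3, tissue factor, rose by 0.68 on the log2 scale but lost its call without calf 1, 2 or 4 (adjusted p up to 0.113).

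Proteases and their inhibitors gave 6 rises and 3 falls of 14 tested, against 16.2% and 12.7% of all named genes. The aggrecanase gene ADAMTS4 went from 0.816, 1.12, 1.37 and 1.37 CPM to 3.78, 5.43, 4.58 and 5.43 CPM and ADAMTS6 from 9.47, 2.48, 5.37 and 7.08 CPM to 26.9, 11.02, 23.6 and 46.9 CPM, with log2 fold changes of 2.05 and 2.12. In each the AB libraries were all above the A libraries. HTRA1, a secreted serine protease, had 1.13, the plasminogen activator PLAT 0.90 and the metalloprotease ADAM12 0.87. MMP19 had 1.93, but did not rise in calf 1 (log2 ratio -0.08) and lost its call without calf 2, 3 or 4 (adjusted p up to 0.173). Among the fallen genes, the collagenase gene MMP1 had -1.32, though its log2 ratio was 0.15 in calf 2, and the gelatinase gene MMP2 had -0.56, lower in 4 of 4 calves. They lost their calls without calf 1, 3 or 4 and without calf 1, 2 or 4 (adjusted p up to 0.12 and 0.14). PI3, an elastase inhibitor, had -1.52.

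Of 26 tested genes of inflammation and innate immunity 7 rose, 7 fell and 12 were not called. Among all named genes 16.2% rose and 12.7% fell. The risen genes included the chemokine CCL2, from 1.84, 0.974, 1.05 and 1.23 CPM to 11.4, 7.85, 11.9 and 19.8 CPM (3.27), the cytokine LIF (2.12), the nitric oxide synthase NOS2 (1.70) and the prostaglandin synthase PTGS2 (1.32). Besides TNFAIP6, CHI3L1, a chitinase-like glycoprotein of cartilage, had 0.74 and lost its call without calf 2, 3 or 4 (adjusted p up to 0.116).
VCAM1, an adhesion receptor for leukocytes, fell from 1502, 1552, 1731 and 1441 CPM to 639, 567, 778 and 440.0 CPM. The groups were apart, and the log2 fold change was -1.39 ± 0.14 (SE), with an adjusted p of 0.000669. ICAM1, a second such receptor, had -1.14, the complement proteases C1R and C1S -1.09 and -0.94, the chemokine CCL20 -1.996 and the receptor TLR4 -0.69. IL33 had a fitted log2 fold change of -3.90 on 10, 13, 143 and 64 counts in the A libraries and 0, 0, 4 and 8 counts in the AB libraries, so its size rests on few counts.

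Genes of EGF receptor and ERK signaling, through which TGFα acts, fell in 5 and rose in 1 of 13 cases. Among all named genes 12.7% fell and 16.2% rose, and the median log2 fold change of the list was -0.43. BTC, the EGF receptor ligand betacellulin, measured 91.2, 28.2, 56.1 and 31.4 CPM in A and 26.8, 12.6, 29.1 and 17.1 CPM in AB (-1.20, adjusted p = 0.00169). The others that fell were EGR3, an immediate early transcription factor (-1.32), DUSP4, a phosphatase of ERK (-0.97), ETV4, a transcription factor (-0.81), and ERRFI1, an inhibitor of the receptor (-0.61). PHLDA1, an early response gene, rose by 1.16. Without calf 2, 3 or 4 only 2 of the 13 fell, and without calf 1 there were 4: EGR3 lost its call without calf 2 or 3, ERRFI1 without calf 2, 3 or 4, and DUSP4 with any calf left out (adjusted p up to 0.0921, 0.0978 and 0.106). Of the ligands, AREG (-1.02) and HBEGF (0.43) were not called.

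Cell cycle genes rose together: 10 of 11 were higher, against 16.2% of all named genes, and 9 to 10 with any calf left out. Their median log2 fold change was 1.94. MKI67, the gene of the proliferation antigen Ki-67, measured 18.9, 197, 29.5 and 78.4 CPM in A and 159.9, 359, 157 and 365 CPM in AB. Calf 2 had the highest level in A and the smallest ratio, and the groups overlapped (log2 fold change 2.14 ± 0.31, adjusted p = 0.00291). FOXM1, a transcription factor of the mitotic program, had 2.17, the mitotic cyclins CCNB2 and CCNB1 2.06 and 2.01, TOP2A 1.98 and PCNA, the sliding clamp of DNA replication, 0.55. CCND1, the gene of cyclin D1, was not called, at 0.37.

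The list of lipid handling genes, set with earlier results of these data known, showed 1 rise and 5 falls of 13 tested. There were 8 falls without calf 1, and of all named genes 12.7% fell. The list included SCARA5, a ferritin receptor, and GHR, the growth hormone receptor, which are counted among the 5 falls. The count is therefore not a result about lipid handling as such. Besides SCARA5 and GHR, the fallen genes were the fatty acid binding protein FABP4, from 38.8, 7.36, 7.16 and 5.94 CPM to 9.14, 1.74, 2.18 and 0.883 CPM (-2.10), the fatty acid transporter CD36 (-2.09) and the apolipoprotein APOD (-0.96). ANGPTL4, an inhibitor of lipoprotein lipase, had 0.74 and lost its call without calf 3 or 4 (adjusted p up to 0.107).

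**Figure D4:**
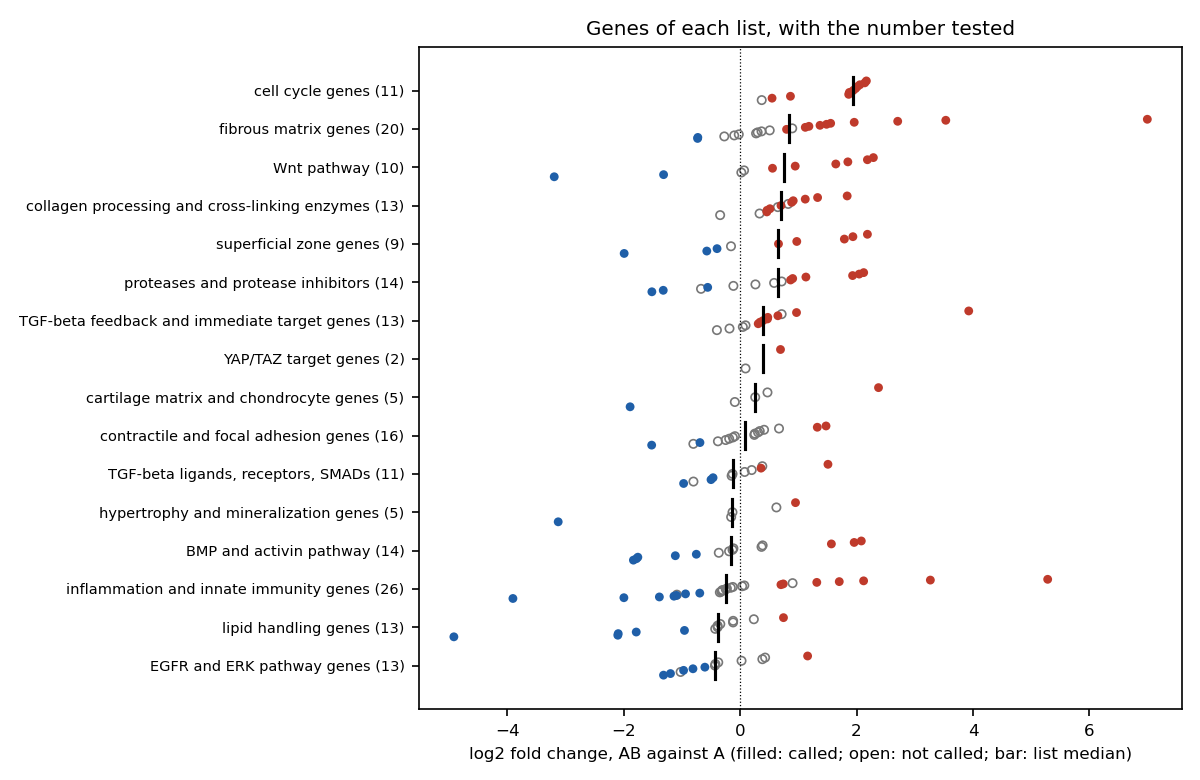
Log2 fold change of AB against A for the tested members of the 16 pathway lists (1 point per gene, number tested in parentheses). Filled points are called genes, open points are not called, the bar is the list's median, and the dotted line is the median of all genes tested, -0.0050; the cell cycle list lies farthest to the right.

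The called genes of highest count, which is not a measure per length, included 4 without a name. ENSBTAG00000008300 measured 23935, 8194, 9253 and 14515 CPM in A and 62655, 25777, 17531 and 28359.8 CPM in AB (1.23, adjusted p = 0.00646), and ENSBTAG00000013155 had 1.29. ENSBTAG00000021035 and ENSBTAG00000022396 fell by 0.76 and 0.81 on the log2 scale. The calls of ENSBTAG00000013155 and ENSBTAG00000022396 were lost without calf 2 or 3 (adjusted p up to 0.147 and 0.0553), and that of ENSBTAG00000021035 with any calf left out (up to 0.142).

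Markers of other cell types were measured in the same libraries. The summed levels of the identified markers were 8.36 to 15.0 CPM in A and 8.97 to 11.3 CPM in AB for endothelial cells (VWF and TEK), and 28.1 to 50.1 and 25.5 to 105 CPM for leukocytes (CD68, LAPTM5 and CD14). They were 0.0816 to 1.22 and 0.112 to 1.72 CPM for the erythroid gene HBM, 12.5 to 14.4 and 9.48 to 22.1 CPM for the osteoblast gene DMP1, and 11.1 to 27.7 and 7.59 to 29.8 CPM for the pericyte gene NOTCH3. FABP4 was the only adipocyte marker identified, and no skeletal muscle marker was. VWF, the von Willebrand factor gene, had a log2 fold change of -0.89, CD68, a macrophage protein, -0.90, and LAPTM5, a lysosomal protein of blood cells, 1.13, the last from 4.86, 25.2, 6.63 and 5.12 CPM to 10.7, 70.8, 14.1 and 8.36 CPM. CD68 lost its call without calf 3 or 4 (adjusted p up to 0.0719). The part of these cells in the results above was not tested.

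The same comparison in the cells with shCreb5 addressed whether the response depends on the shRNA. There 3884 of 12769 genes were called (30.4%), and 2081 genes were called the same way in both, which is 81.4% of the calls in shScramble cells and 53.6% of those in shCreb5 cells. No gene was called in opposite directions (0 of the genes called in both). Of the 2522 genes called in shScramble cells and tested in shCreb5 cells, 2493 had the same sign. The direct test of the difference between the responses called 0 of 13372 genes by edgeR, with a smallest adjusted p of 0.961. At an unadjusted p under 0.05 there were 571 genes (4.27%). The test called 10 genes by DESeq2 and 0 by limma-voom. Its model blocked on the calf but not on calf and shRNA together. Differences between the shRNA cultures of a calf therefore stayed in its error, and 0 calls do not show that the responses are equal. In shCreb5 cells the log2 fold change was 7.53 for DPT, -5.51 for SCARA5, 1.91 for PRG4, 3.08 for WIF1, -2.43 for SPP1, -0.82 for CREB5 and 2.34 for MKI67, each called.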

How the data were processed

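RNA-Seq libraries of shScramble chondrocytes in conditions A and AB, 4 calves each, were analysed, grouped by their labels. The authors sequenced single-end reads, quantified them with Salmon (genome build UMD3.1, per the labels), used tximport to sum them per Ensembl gene, and deposited these estimated counts, unscaled, as whole numbers. The spread over calves is printed as SD, and that of a fitted fold change as a standard error. Intervals of counting error are not given, since the spread between calves is larger: the chi-square per degree of freedom between libraries of a group was at least 74.0.

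With R 4.3.3 and edgeR 4.0.16, genes passing filterByExpr were scaled by TMM and tested for a quasi-likelihood difference in a model that blocks on the calf (the study's methods also put the calf in the model) and Benjamini-Hochberg adjustment. Standard errors are the fold change divided by the root of F. Log2 ratios within a calf use a prior count of 2. The calf numbers pair the libraries: deviations from the group means correlated at 0.50 to 0.77 within calves and -0.40 to 0.03 between them. The deviations of a group cancel out for each gene. High values within calves therefore lower those between calves by construction, and the latter are no separate evidence for the pairing. The difference between shRNAs was tested as an interaction in all 16 libraries, with the calf alone as the block.

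The members and the gene lists were chosen with earlier results of these data known. Genes are named if they were the 12 rising or falling called genes of largest fold change that moved 1 way in all 4 calves and had at least 10 CPM, the 5 of highest CPM or of smallest adjusted p, the 3 leading called members of a list, or 1 of 17 genes set by name. Other list members are named to explain a count and were picked after their values were seen. Names came from the identifier columns of 2 supplementary sheets at hand in part, whose columns of the authors' comparisons were not used. No gene positions, lengths or sequences were used here. Alternatives were DESeq2 1.42.0, limma-voom (limma 3.58.1), RLE, other filters on low counts, no block, all 16 libraries, each calf left out and, added after seeing the data, library totals without TMM. The tests were checked on simulated data. High-output and mid-output sequencing kits were used, and which libraries were run with which is not given in the sources used here, so sequencing batches were not examined. Values of a few genes are not reported here. 64 genes of the table share all counts with another gene.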

Additional observations from a re-analysis of the deposited data

Results flagged for a closer look

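In 120 sets of 4 calves (the log2 ratios of 98 named genes, the levels of 10 of them in each condition and the library totals), 5 held a calf far from the other 3, where chance gives about 6. MATN2 rose by a log2 ratio of 5.12 in calf 1 and by 3.44 to 3.62 in the others, and its A library had the lowest level there. AK5 had -0.95 in calf 1 and -2.65 to -2.48 in the others. CHI3L1 had 1.42 in calf 1 and 0.49 to 0.54 in the others. TGM2 had 1.77 in calf 1 against 1.85 in each of the others, a gap that is wide only because the 3 others were nearly equal. TNFAIP6 stood at 30.8 CPM in the AB library of calf 2 and at 166 to 217 CPM in the other AB libraries. Calf 1 was the calf apart in 4 of the 5, and the cause was not tested.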

How the results depend on the processing

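The calls rest on the calf as a replicate block: without it 202 genes were called, 125 higher and 77 lower, and 67 of the 98 named genes lost their call, with 0 calls among the cell cycle genes. With library totals in place of TMM, added after seeing the data, the split was 841 higher and 2341 lower, and the calls of TGFB1, ANGPTL4 and F3 were lost. With 1 calf left out, 1366 to 1926 genes were called, 737 to 1049 higher and 629 to 877 lower, the fewest without calf 3, and 8 to 19 named genes lost their call. DESeq2, limma-voom, RLE, the other filters and the fit of all 16 libraries gave 2391 to 2791 calls. DESeq2 did not call PRG4, ENSBTAG00000008300, ENSBTAG00000013155, ENSBTAG00000021035, DUSP4 and MMP1. It gave each a larger dispersion than edgeR's gene-wise estimate, which the quasi-likelihood test does not use. In the fit of all 16 libraries 9 named genes lost their call. No direction of a called named gene was reversed under any alternative listed. For the difference between shRNAs DESeq2 called 10 genes and each other alternative run for it 0, with 94 to 629 genes at an unadjusted p under 0.05. It was not run with library totals in place of TMM, and all 16 libraries are in its fit throughout, less the calf left out. Depth limits the fold of genes with few counts, such as IL33, CLEC3A, SEL1L3 and TAGLN.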

Other observations

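The counts below are over families formed by gene symbol or over a list of mitosis genes, all chosen after the first results were seen, and have no test of their own. Of all named genes 16.2% were higher and 12.7% lower, and counts of a few genes in a small family do not set it apart from these shares. Of 30 further mitosis genes 27 were higher in AB and none lower (0 by edgeR), with a median log2 fold change of 1.70, and 25 to 27 were higher with any calf left out. They included UBE2C, a ubiquitin-conjugating enzyme of the anaphase-promoting complex (2.31), SHCBP1 (2.20), the kinetochore protein gene NDC80 (2.07), the spindle gene ASPM (2.03) and the kinesin KIF20A (2.01). CDC25C (0.50) was among the 3 not called. Their summed level was 235 to 681 CPM in A and 598 to 1244 CPM in AB.

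Of 13 collagen genes 6 were higher and 0 lower by edgeR, with COL6A6, a chain of type VI collagen, at 2.86 and COL7A1, the chain of anchoring fibrils, at 0.43. COL6A6 had only 4, 7, 2 and 4 counts in A and 56, 23, 18 and 16 in AB, so its size rests on few counts. Of 7 ADAMTS genes 4 were higher. Of 10 semaphorin genes, guidance cues of which some bind NRP1, 2 were higher, SEMA3C (1.2) and SEMA3D (0.75), and 4 lower, with SEMA4B at -1.27 and SEMA3A at -0.68, or 2 lower without calf 3. IGFBP3, a carrier of insulin-like growth factors, had -2.11, lost without calf 3, while IGFBP4, IGFBP6 and IGFBP7 were not called. Of 16 potassium channel genes 4 were higher and 4 lower, with KCNQ3 at 2.27 and KCNK17 at -1.53. With 1 calf left out, 1 to 2 were higher and 1 to 3 lower, the fewest higher without calf 3 and the fewest lower without calf 4.

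Of 14 interleukin and receptor genes 4 were higher, led by IL15RA (1.42) and IL18BP (1.27), a secreted inhibitor of interleukin 18. IL15RA had few counts, with 7 in A and 8 in AB of calf 4. There were 3 lower, among them IL6R (-1.10) and IL4R (-0.83), or 5 lower without calf 1. Of 11 chaperones and disulfide isomerases of the endoplasmic reticulum 3 were higher, PDIA5 (0.98), MANF (0.76) and HYOU1 (0.57), and 0 lower by edgeR, while DESeq2 called 6 higher. The 25 ribosomal protein genes had log2 fold changes of 0.12 to 0.46, with a median of 0.24, and 0 were called by edgeR, 4 by DESeq2 and 5 with all 16 libraries in the fit.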
